A study of Drosophila melanogaster with 8 samples.

Results

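The subject here is a set of 20 genes whose transcripts were high in only 2 of 8 whole wing disc libraries of Drosophila melanogaster, the control libraries wt 2 and wt 3. The set was picked from measured values. A gene belonged to it when its mean level in wt 2 and wt 3 was at least 2 CPM (reads per 1000000 gene reads of the library), when that mean was at least 8 times the level plus 0.1 CPM in each of wt 1, wt 4, CRISPR 1, CRISPR 2 and CRISPR 4, and when CRISPR 3 lay under 10% of it. The rule leaves out 10 neuronal genes by name. With these set aside, 78 of 17559 counted gene IDs met the 8-fold condition and 20 of these also met the CRISPR 3 condition. Of the genes left out by name, pros met the 8-fold condition but not that on CRISPR 3, and 0 met all limits. Because the rule used all 8 libraries, the levels of the 20 genes are a description and carry no test.

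Wing imaginal discs are the larval epithelial sacs that form the adult wing and thorax, and they carry the adult muscle precursors, the progenitors of flight muscle. The study asked what the Hox factor Antp regulates in those precursors. The control (wt, 4 libraries) was the driver line 1151 crossed to w1118, and the other genotype (1151>AntpCRISPR, here CRISPR, 4 libraries) directed CRISPR against Antp with the same driver. Larvae of both genotypes were kept at 29 °C and discs were taken at the wandering stage, about 5 days after egg lay. The control carries the driver but no CRISPR transgene, and the driver acts in the muscle precursors, so by design the disc epithelium of the CRISPR larvae is not targeted. Neither the sex of the larvae nor the number of discs per library is stated. By the labels, the submitters analysed wt 2, wt 3, CRISPR 1 and CRISPR 2 and set the remaining 4 aside.

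A wing disc lies in the larva close to fat body, gut, nervous system, trachea and salivary gland, and RNA of any of these tissues carried with a disc is counted with it. In a bulk library, fewer cells of a type and less RNA per cell cannot be told apart. The larval midgut secretes digestive proteases and lysozymes, the fat body makes the storage proteins of the blood, and the nervous system expresses synaptic proteins and ion channels. Each has transcripts that a disc epithelium makes little of, and tissue lists were drawn up for such genes, though some listed genes stood at similar levels in every library.

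Antp, the targeted gene, was measured in every library. The control libraries 1 to 4 had 175, 142, 146 and 126 CPM, and CRISPR 1 to 4 had 192, 169, 150 and 151 CPM, so the genotypes overlap. A gene broken by CRISPR may still be transcribed, and this level does not check the genotype labels. Gene reads ranged from 35076546 in CRISPR 1 to 47980221 in wt 2. A count of 0 allows up to 3 reads, or 0.0625 to 0.0855 CPM by library, and this floor covers counting error only. Wing disc epithelium markers, 21 genes in the tables, summed to 4364 CPM in the lowest library (CRISPR 4) and 5547 CPM in the highest (CRISPR 2), and the 10 adult muscle precursor markers to between 663 and 766 CPM, so the labelled tissue was present in all 8. Of all 28 pairs of libraries, wt 2 with wt 3 was the most alike, with a chi-square per degree of freedom of 10.6 against 42.3 to 419 in the remaining 27, where sampling noise alone gives about 1. Whether they came from separate animals is not stated, so their SD, given below, may measure technical spread only.

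The 20 genes summed to 835 and 849 CPM in wt 2 and wt 3. The sum was 23.1 CPM for wt 4, 17.6 CPM for CRISPR 2, 15.9 CPM for CRISPR 3 and 12.6 CPM for wt 1. CRISPR 1 and CRISPR 4 were lowest, with 6.13 and 4.73 CPM. The 5 highest genes, Obp56d, Lsp1alpha, CG7465, CG14332 and CG42834, made up 85.6% of the sum in wt 2 and 86.3% in wt 3. All 20 genes were detected in wt 4, with at least 1 read, while 8 had 0 reads in wt 1 and 7 had 0 reads in CRISPR 1. Of the 20, 19 are protein coding and 1 is a long noncoding RNA, and 15 carry only a CG number as a symbol, for which no role is given here.

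**Figure D1:**
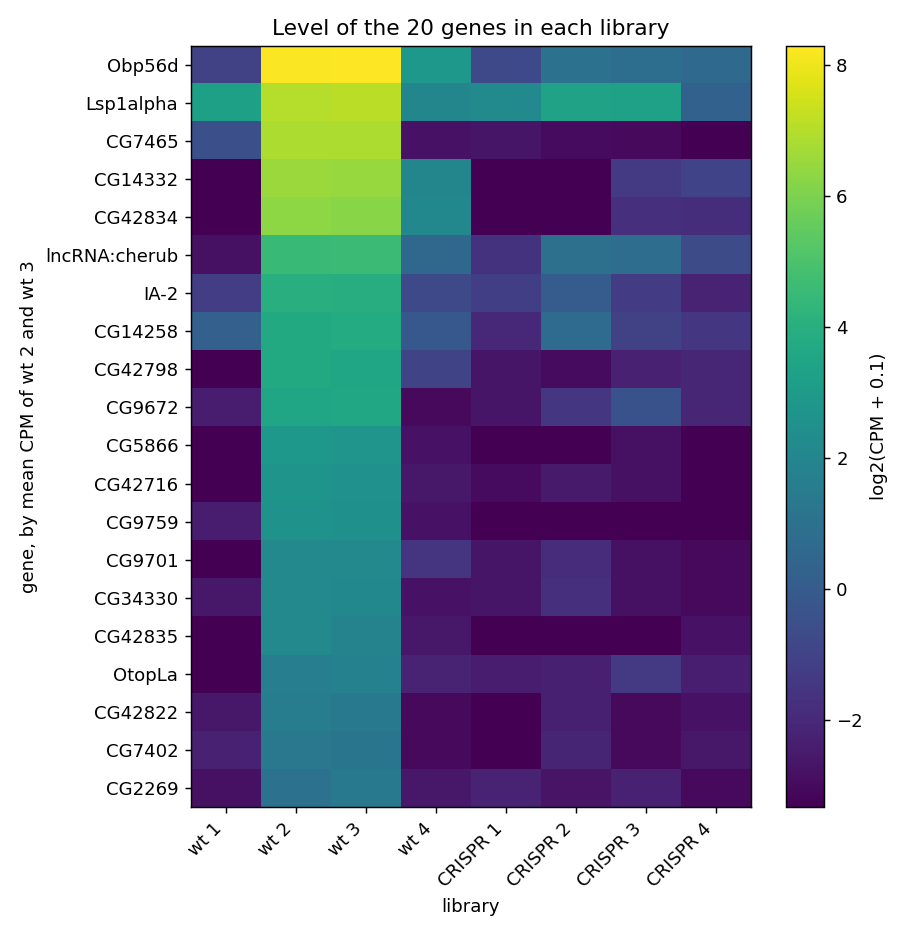
Level of each of the 20 genes (rows, ordered by mean CPM of wt 2 and wt 3) in each of the 8 libraries (columns), as log2(CPM + 0.1) by colour. The wt 2 and wt 3 columns are high for every row by the rule, and wt 4 shows an intermediate colour for Obp56d (7.13 CPM), CG14332 (3.88 CPM) and CG42834 (4.18 CPM).

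Obp56d (FBgn0034470, 2R 19702924 to 19703915, dm6 coordinates), a member of the odorant-binding protein family of small secreted carriers of hydrophobic molecules, had the highest level. Obp56d had 296 and 314 CPM in wt 2 and wt 3 (305 ± 12.6 CPM, SD, n = 2), 7.13 CPM in wt 4, and 0.381, 0.485, 1.99, 1.76 and 1.48 CPM in wt 1 and in CRISPR 1 to CRISPR 4. Among the low libraries wt 4 was the highest for this gene. Its neighbour in the same family, Obp56a, did not share the pattern, with 31.2 ± 1.35 CPM in wt 2 and wt 3 but 33.1 CPM in CRISPR 3 and 36.5 CPM in CRISPR 4. Another family member, Obp44a, which shares exonic sequence with Pabp2, came close to the limits, with 24.7 ± 1.15 CPM in wt 2 and wt 3, 3.44 CPM in wt 4 and 2.63 in CRISPR 3. Obp99b stood at 47.3 ± 1.99 CPM in wt 2 and wt 3 and at 3.16 to 12.4 CPM elsewhere.

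Lsp1alpha (FBgn0002562, X 12490291 to 12492982) encodes a larval serum storage protein that the fat body secretes into the blood, and it was the only one of the 20 genes on any tissue list. Its level was 130 CPM in wt 2 and 136 CPM in wt 3 (133 ± 4.25 CPM, SD, n = 2). The other control libraries held 9.70 CPM (wt 1) and 3.97 CPM (wt 4), and CRISPR 1 to CRISPR 4 held 4.42, 10.1, 9.88 and 1.13 CPM. Lsp1alpha was detected in every library with at least 48 reads. Its close relatives Lsp1beta and Lsp1gamma had 139 ± 4.93 and 113 ± 0.623 CPM in wt 2 and wt 3 and missed both the 8-fold and the 10% condition, with smallest ratios of 6.92 and 7.37 and CRISPR 3 at 11.2% and 14.9%. The paralogs resemble each other, so the share of reads given to each is uncertain.

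CG7465 (FBgn0035551, 3L 4480283 to 4481487) had the sharpest contrast of the set. CG7465 had 118 CPM in both wt 2 and wt 3 (118 ± 0.214 CPM, SD, n = 2), on 5641 and 5142 reads. The remaining libraries held 27 reads in wt 1, 2 in wt 4, 2 in CRISPR 1, 1 in CRISPR 2, 1 in CRISPR 3 and 0 in CRISPR 4. The mean of wt 2 and wt 3 was 167 times the level plus 0.1 CPM in the highest of the 5 low libraries (wt 1).

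Cherub and IA-2 are known from neural and secretory cells. The long noncoding RNA cherub (FBgn0262972, 3R 11247631 to 11256123), known from larval neural stem cells, had 23.5 and 23.8 CPM in wt 2 and wt 3 (23.6 ± 0.200 CPM, SD, n = 2). Elsewhere cherub was lowest in wt 1, at 0.0448 CPM, and highest in CRISPR 2, at 1.86 CPM, while CRISPR 3 held 1.67 and wt 4 held 1.41 CPM. IA-2 (FBgn0031294, 2L 1008378 to 1048053), which encodes a phosphatase-like protein of dense-core secretory vesicles, had 15.3 and 14.9 CPM in wt 2 and wt 3, and between 0.118 CPM (CRISPR 4) and 0.957 CPM (CRISPR 2) in the other 6. OtopLa (FBgn0259994, X 5625676 to 5648487), an otopetrin proton channel gene, had 3.0 and 3.35 CPM in wt 2 and wt 3 and 0.289 CPM in CRISPR 3, on 13 reads there. At 9.12% of the wt 2 and wt 3 mean, that was the highest CRISPR 3 share in the set.

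CG14258 (FBgn0039482, 3R 27093143 to 27094224) had 13.4 and 13.9 CPM in wt 2 and wt 3. Its residue was the largest of the set relative to that level, with 1.10 CPM in wt 1, 0.831 in wt 4, 1.55 in CRISPR 2 and 0.143 to 0.378 CPM in the other 3. CG9672 (FBgn0030777, X 16705971 to 16706874) stood at 11.6 and 11.8 CPM in wt 2 and wt 3, and its next highest library was CRISPR 3, with 0.668 CPM on 30 reads. The 10 genes of the set below 10 CPM, from CG5866 (6.91 ± 0.400 CPM) down to CG2269 (2.22 ± 0.396 CPM; SD, n = 2), never exceeded 0.289 CPM outside wt 2 and wt 3. CG9759 (FBgn0038160, 3R 13607078 to 13609246) had 297 and 244 reads in wt 2 and wt 3, 4 in wt 1, 2 in wt 4 and 0 in all 4 CRISPR libraries, and no other of the 20 genes was at 0 in all 4.

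CG42716 (FBgn0261633, 3L 16033778 to 16034170) had 304 and 249 reads in wt 2 and wt 3 and at most 3 in each of the other 6 libraries. Its neighbour CG42717, on the minus strand, came near the limits with 222 and 226 reads in wt 2 and wt 3, but it kept 38 reads in wt 4 and 8 to 13 in the other 5 libraries. The other genes at 1 CPM or more within 20 kb of CG42716, namely Mbs, Notum and Diap1, which are also expressed in the disc, were at 90.8% to 105% of their wt 2 and wt 3 mean in CRISPR 3. CG9701 (FBgn0036659, 3L 16733546 to 16739364) had 206 and 188 reads in wt 2 and wt 3, 10 in wt 4, 7 in CRISPR 2 and 0 to 2 in the rest. CG34330 (FBgn0085359, X 19068275 to 19068973) had 209 and 180 reads in wt 2 and wt 3, 8 in CRISPR 2 and 1 to 3 in the rest. For these 3 genes the low libraries differ by 10 reads at most, and at this depth their order cannot be read.

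CG7402 (FBgn0036768, 3L 17887705 to 17891404) had 117 and 95 reads in wt 2 and wt 3 and at most 5 elsewhere. CG2269 (FBgn0033484, 2R 10085169 to 10096416), the lowest of the set, had 93 and 109 reads and also at most 5 elsewhere. Over the set the ratio of wt 3 to wt 2 ran from 0.833 (CG42835) to 1.29 (CG2269), with wt 3 higher for 9 genes and wt 2 higher for 11.

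Per kb of exonic sequence, the order of levels changed. Obp56d led with 331 CPM per kb, followed by CG14332 with 178, CG42834 with 145, CG7465 with 105 and Lsp1alpha with 50.5 CPM per kb. OtopLa was lowest with 0.421 CPM per kb, followed by CG2269 with 0.550, CG7402 with 1.22 and IA-2 with 1.47, and the long gene cherub had 2.81 CPM per kb. The genes were mostly short. Their median exonic length was 912 bp with a median of 2 exon blocks, and 55.0% of them were under 1000 bp. Among the 7340 annotated genes at 2 CPM or more in wt 2 and wt 3, the median was 2217 bp with 4 exon blocks, and 13% were under 1000 bp. The 58 genes that met the 8-fold condition but not that on CRISPR 3 had a median of 1324 bp, also with 2 exon blocks. Few exon blocks were thus not particular to the set. None of the 20 shares exonic sequence with another annotated gene.

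Of the 20 genes, 6 lie in 1 short stretch of chromosome arm 3R, a feature that the rule did not use. They are CG42798, CG42822, CG5866, CG42834, CG42835 and CG14332, and they span 15525 bp from 17406678 to 17422202 (dm6). The stretch holds 12 counted genes, so that 6 of 12 are in the set, and 5 of the 6 members are on the plus strand while CG14332 is on the minus strand. No other pair among the 20 genes lies within 20 kb of each other.

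Within the stretch CG14332 (FBgn0038509, 3R 17421690 to 17422202) and CG42834 (FBgn0262023, 3R 17418759 to 17419294) were the most abundant. CG14332 had 4441 reads in wt 2 and 3930 in wt 3 (92.6 and 90.1 CPM), 168 in wt 4, 13 in CRISPR 3, 17 in CRISPR 4 and 0 in wt 1, CRISPR 1 and CRISPR 2. CG42834 had 3825 and 3314 reads in wt 2 and wt 3 (79.7 and 76.0 CPM), 181 in wt 4, 9 in CRISPR 3, 8 in CRISPR 4 and 0 in wt 1, CRISPR 1 and CRISPR 2. For both genes wt 4 was the highest of the low libraries, and the same 3 libraries had 0 reads.

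CG42798 (FBgn0261932, 3R 17406678 to 17407534) followed with 638 and 501 reads in wt 2 and wt 3, 18 in wt 4 and 0 to 6 in the rest. CG5866 had 345 and 289 reads in wt 2 and wt 3, CG42835 had 206 and 156, and CG42822 had 143 and 109. In the other 6 libraries these 3 genes had at most 4 reads each. Wt 4 held 4.25% of the wt 2 and wt 3 mean for CG14332 and 5.37% for CG42834, but 0.668% for CG5866, 1.76% for CG42835 and 0.843% for CG42822, and the last 3 shares rest on 2, 3 and 1 reads.

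The other genes of the stretch were low. CG17283 had 50 reads in wt 2, 49 in wt 3, 2 in CRISPR 4 and 0 in the other 5 libraries, and its mean of 1.08 CPM and smallest ratio of 7.36 kept it out of the set. CG5860 had 6 and 7 reads, CG5863 had 6 and 8, and CG33333, which overlaps asRNA:CR46034, had 8 and 4 reads in wt 2 and wt 3, and outside these libraries the 3 genes had 1 read in all (CG5863, CRISPR 1). CG42821 had 1 and 3 reads in wt 2 and wt 3 but also 3 in wt 1, and asRNA:CR46034 had 0 reads throughout. Just beyond CG42798, CG42823 had 21 and 16 reads in wt 2 and wt 3 and 2 in the remaining 6 libraries. The flanking genes with levels above 10 CPM differed among themselves. Sur-8 stood between 90.9 and 121 CPM in all 8 libraries and cysu between 15.7 and 40.6 CPM. CREG, beyond Sur-8, had a mean of 53.9 CPM in wt 2 and wt 3, a smallest ratio of 3.86 and 23.4% in CRISPR 3, so it had the looser pattern. The genes sds22 and Brf, also within 20 kb of CG42798, had smallest ratios of 0.699 and 0.875. Reads of the 6 members together came to 200 and 190 CPM in wt 2 and wt 3, 8.61 CPM in wt 4 and 0.057 to 0.824 CPM in the other 5 libraries.

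**Figure D2:**
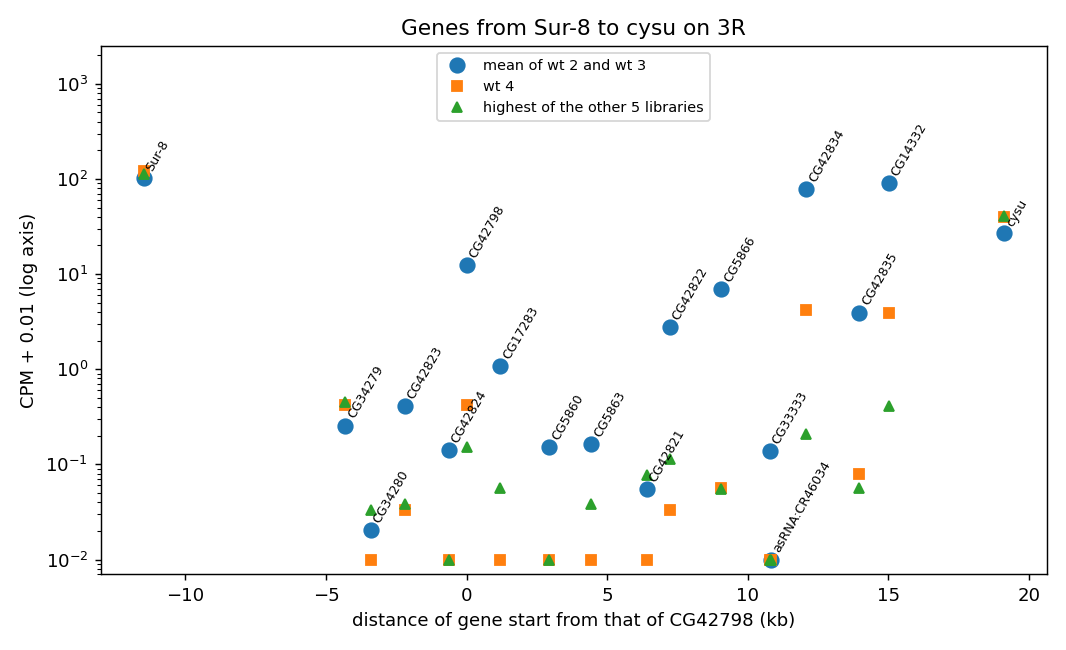
Level of each counted gene from Sur-8 to cysu on 3R against the distance of its start from that of CG42798, on a log axis of CPM + 0.01; circles are the mean of wt 2 and wt 3, squares wt 4 and triangles the highest of the other 5 libraries. The 6 members stand between 2.74 CPM (CG42822) and 91.3 CPM (CG14332) in wt 2 and wt 3, above every other library, while at Sur-8 and cysu all symbols lie close together.

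The question of tissue was addressed with 21 lists of marker genes (494 of 535 entries matched a counted gene). Of the 20 genes, 1 was on a list (Lsp1alpha, fat body) and 19 were on none. The lists for midgut digestion, other gut regions, Malpighian tubule, salivary gland, nervous system, glia, eye, ring gland, trachea, blood cells, cuticle, gonad, muscle and heart held 0 of them. By these lists the set was assigned to no single tissue.

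With looser limits, chosen after the values were seen (a mean of at least 1 CPM in wt 2 and wt 3, at least 2 times the level plus 0.1 CPM in each of the 5 low libraries), 215 of 8113 genes at 1 CPM or more had the pattern, or 2.65%. All 10 midgut digestion genes at that level had it, 7 of 14 fat body genes (50%) and 10 of 34 neuron function genes (29.4%). Neural progenitor and transcription factor genes had it in 3 of 25 cases. In 12 of the 21 lists, among them salivary gland (0 of 9), cuticle and epidermis (0 of 11), trachea (0 of 9), ring gland (0 of 10), blood cells (0 of 13) and larval muscle (0 of 20), it was found for 0 genes, and in 5 more for 1 gene each. Of these single genes, pros (other gut regions) and toy (eye and other discs) are also among the 3 neural progenitor and transcription factor genes. The whole midgut digestion list summed to 2709 and 2749 CPM in wt 2 and wt 3, and the whole fat body list to 1067 and 1064 CPM against 418 to 742 CPM in the other 6 libraries. The whole neuron function list did not stand apart in this way, with 1101 and 1102 CPM in wt 2 and wt 3 and 758 to 1155 CPM in the other 6. The part of these tissues in the levels of the 20 genes was not tested.

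By the rule, CRISPR 3 separates the 20 genes from the gut genes. Midgut digestion genes in CRISPR 3 ran from 26.7% (betaTry) to 92.5% (Jon25Bi) of their wt 2 and wt 3 mean, with a median of 63.1% over 10 genes, and the whole list summed to 1563 CPM there. The 20 genes were at 0% to 9.12% there, a range that the rule sets, with 11 of them under 1%. Fat body genes with the looser pattern were at 7.46% to 25.2% (median 14.9%, 7 genes, Lsp1alpha among them), and neuron function genes at 6.19% to 42.5% (median 16.1%, 10 genes). Both medians lay under that of the midgut genes. They are not set against the median of the 20 genes, which the rule holds under 10%. The ranges overlapped in part. Lsp1alpha and Fbp2 of the fat body list and Rdl, VGlut and cpx of the neuron list were within the range of the 20 genes, and Rim (42.5%), which encodes a presynaptic scaffold protein, was above betaTry.

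The 58 genes that met the 8-fold condition and failed on CRISPR 3 had a median of 39.7% there, from 17.8% (CG13321) to 155%. Among the 78 genes, none lay between 9.12% (OtopLa) and 17.8%. The gene pros, left out by name and so not among the 78, met the 8-fold condition and lay in that gap, at 14.6%. It is on the neural progenitor list and also on the list of other gut regions. At the 10% limit the next members inward were Lsp1alpha (7.46%), cherub (7.06%), CG9672 (5.70%) and CG2269 (5.02%). The next of the 58 genes outward were CG4563 (18.5%), alpha-Est1 (20.7%), Acbp6 (21.0%) and apolpp (22.6%). At the 8-fold limit the nearest members were CG14258 (8.25 times), CG7402 (10.1), CG2269 (10.4), cherub (12.0) and Lsp1alpha (12.98). Among genes that met the limits on the mean and on CRISPR 3, the nearest outside were Npc2b (7.18), CG31226 (6.40), cpx (5.97), Idgf3 (5.60) and CG42717 (5.02).

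**Figure D3:**
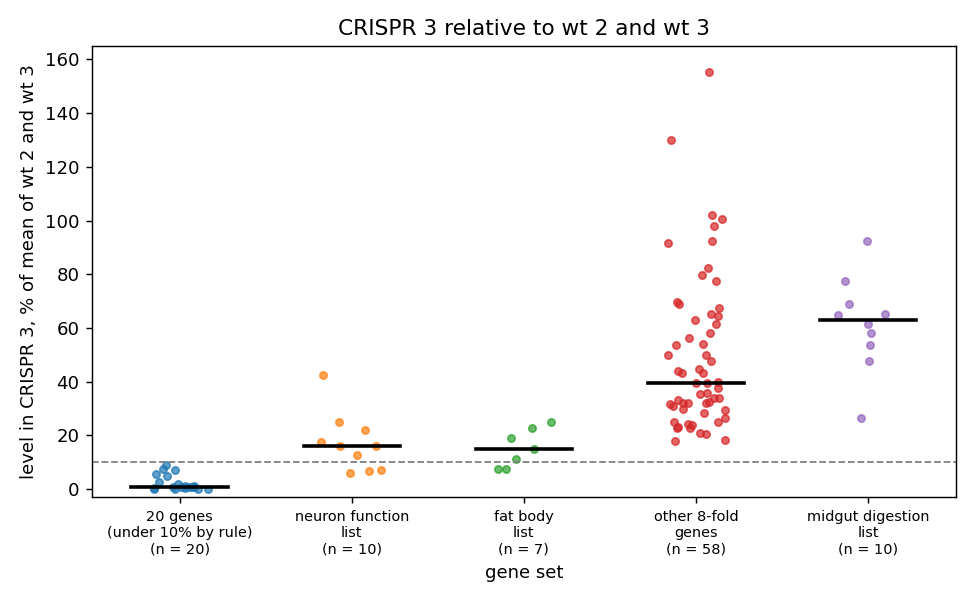
Level in CRISPR 3 as a percentage of the mean of wt 2 and wt 3 for the 20 genes, for genes of the neuron function, fat body and midgut digestion lists with the looser pattern, and for the other 58 genes with the 8-fold pattern; points are genes, bars are medians and the dashed line is the 10% limit of the rule. Medians are 16.1% for neuron function, 14.9% for fat body, 39.7% for the other 8-fold genes and 63.1% for midgut digestion.

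Outside the set, 22 of the 195 other genes with the looser pattern lay under 10% in CRISPR 3, and 2 of them lay under 1%. Of the 20 genes 11 lay under 1%, but the limit of 10% was part of their choice, so the sets are not compared. The 22 included the vesicular glutamate transporter gene VGlut (overlapping CG18641, 1.30 CPM in wt 2 and wt 3, 6.86% in CRISPR 3), the complexin gene cpx (3.07 CPM, 7.26%), the GABA receptor gene Rdl (1.80 CPM, 6.19%), the axon guidance receptor gene robo3 (1.03 CPM, 8.67%), the fat body gene Fbp2 (overlapping CG42847, 36.3 CPM, 7.61%) and the cuticle protein gene TwdlN (1.05 CPM, 2.12%). The 2 under 1% were CG17283 of the 3R stretch and CG31226, both with 0 reads in CRISPR 3. These genes were chosen after their values were seen.

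Of the 10 neuronal genes that the rule leaves out, 9 matched a counted gene. The nearest to the pattern were the transcription factor gene pros (18.7 ± 1.83 CPM, SD, n = 2, at least 13.9 times the low libraries, 14.6% in CRISPR 3), cpx and Rdl. Of these, pros is on the list of other gut regions as well as on a neural list. The synaptic gene brp had 2.08 and 2.36 CPM in wt 2 and wt 3, but 0.30, 0.259 and 0.356 CPM in wt 4, CRISPR 4 and CRISPR 3, a smallest ratio of 5.55. The neural transcription factor gene scrt had 2.48 and 3.14 CPM in wt 2 and wt 3 and was at 5.52% of their mean in CRISPR 2, but it stood at 72.3% in wt 4 and 68.1% in CRISPR 3. Of the rest, Sh, nSyb and Syt1 had smallest ratios of 2.88, 3.36 and 1.40. The neuronal RNA-binding protein gene elav stood at 53.1 to 78.8 CPM in all 8 libraries, with wt 2 and wt 3 within that range. It shares exonic sequence with arg and another annotated gene, so its own share of these reads is uncertain.

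The residue in wt 4 and CRISPR 2, for which the rule sets only an upper limit, is given beside that of the gut genes as a description. The midgut digestion list summed to 1.64 CPM in wt 4 and 15.6 CPM in CRISPR 2, which is 0.0601% and 0.571% of its wt 2 and wt 3 mean. The 20 genes summed to 23.1 CPM in wt 4 and 17.6 CPM in CRISPR 2, which is 2.74% and 2.09% (2.97% and 2.91% without Obp56d). All 10 midgut digestion genes with the looser pattern were higher in CRISPR 2 than in wt 4, alphaTry on only 2 reads in each. Among the 20 genes, 11 were higher in wt 4 and 9 in CRISPR 2. Of the 20, 10 had 3 reads or fewer in wt 4 and 9 had so in CRISPR 2, so many of these orders cannot be read. Several of the 11 also lie in the 3R stretch.

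Single genes spread more widely than the sums. CG42834 and CG14332 had 181 and 168 reads in wt 4 and 0 in CRISPR 2. Obp56d was at 2.34% in wt 4 and 0.653% in CRISPR 2, and cherub at 5.96% and 7.88%. Lsp1alpha was also higher in CRISPR 2, with 2.996% in wt 4 and 7.63% in CRISPR 2, as were its fat body list relatives Lsp1beta (5.83% and 14.4%) and Lsp1gamma (4.77% and 12.8%). CG7465 was at 0.0392% and 0.0220% on 2 reads and 1 read, so at this depth the libraries cannot be told apart.

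**Figure D4:**
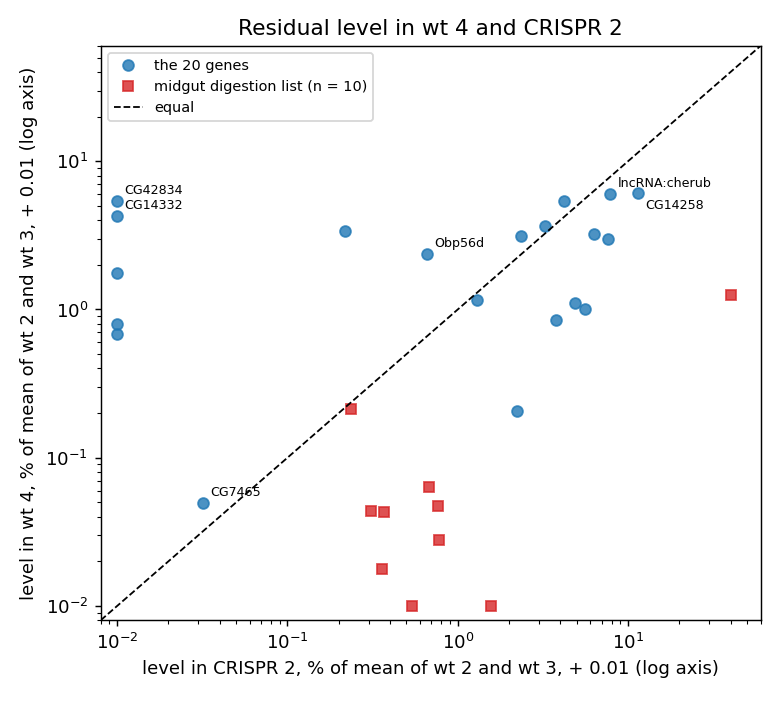
Level in wt 4 against level in CRISPR 2, each as a percentage of the mean of wt 2 and wt 3 plus 0.01 on log axes, for the 20 genes (circles) and the 10 midgut digestion genes with the looser pattern (squares), with the line of equality. The squares lie on or under the line, while 11 circles lie above it and 9 under it. Many circles rest on so few reads that their side of the line cannot be read.

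Across genotypes, wt 2 and wt 3 are also the control arm of the comparison that the labels mark as used. In that comparison edgeR called 17 of the 20 genes as lower in CRISPR 1 and CRISPR 2 than in wt 2 and wt 3 (adjusted p under 0.05), where it called 2.34% of all 9711 tested genes as lower and 2.72% in either direction. The rule drew on these libraries, so nothing is read from the count. The 3 genes not called were cherub, CG14258 and CG7402. The 17 genes made up 7.49% of the 227 genes that fell, and the 58 genes that failed only on CRISPR 3 gave 56 more, or 24.7%. When the spread came from all 8 libraries, 1 of the 20 genes was called as lower, where 4 of all 9711 tested genes were. The count of members also changed when 1 library was left out, but fits that leave 1 library in an arm are not read here.

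Over all 8 libraries the genotypes overlapped for 19 of the 20 genes, in that the lower of wt 1 and wt 4 was at or below the highest CRISPR library. The exception was CG9759, where wt 1 and wt 4 rest on 4 and 2 reads. Because the rule holds wt 1, wt 4 and the CRISPR libraries all low, nothing is read from this count. Its share over all genes was not computed. In the fit over all 8 libraries 7 of the 20 genes passed the filter on low counts and edgeR called 0 of them, where it called 0.119% of all 9255 tested genes as lower in CRISPR and 0.184% in either direction. All 7 had an unadjusted edgeR p under 0.05, as did 398 of all 9255 tested genes. DESeq2 called 1 of the 7, and 78 of all 9255. The rule used all 8 libraries, so nothing is read from these counts.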

How the data were processed

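RNA-seq read counts per gene were analysed for 8 whole wing disc libraries. The authors deposited raw counts, 1 table per library, and the submitters' processing notes name FastQC, Trimmomatic 0.36, STAR, DESeq2 and the build dm6. Per the labels' protocols, RNA came from a Monarch kit and libraries from a ThruPLEX DNA-Seq kit. The sources give no counting program, strand setting or annotation release, so counts of overlapping genes and close paralogs are uncertain. The 5 entries that name no gene held 7.38% to 8.62% of reads and stayed out of totals and tests. Symbols matched 17252 of 17559 IDs, and coordinates and exonic lengths come from Ensembl's annotation of the dm6 assembly.

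CPM was computed as count over total gene counts. The set, the tissue lists and the tests were chosen with earlier results of these data known. Named genes are Antp, the members, genes just inside and outside the limits, the genes left out by name, midgut digestion genes and the leading genes of other lists. Relatives, neighbours and genes with low CRISPR 3 shares were added after their values were seen. Genotypes were compared with edgeR 4.0.16 in R 4.3.3 (TMM, filterByExpr at min.count 10 and min.total.count 15, two-sided quasi-likelihood test, Benjamini-Hochberg adjusted p under 0.05), with DESeq2 1.42.0 as the alternative. The fits were tested on simulated data. Figures were drawn in Python 3.11.15. Where nothing states separate animals, p-values measure the spread between libraries only.

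Same-numbered wt and CRISPR libraries deviated together from their genotype means, with correlations across 9255 genes of 0.451, 0.150, 0.443 and 0.741 for numbers 1 to 4, which meets the limit of 0.1 set for pairing. The pairing comes from the data alone, and the CRISPR library whose deviations correlated best with those of wt 2 was CRISPR 3, not CRISPR 2. The used libraries share only number 2, so only the fit over all 8 has the number as a block.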

Additional observations from a re-analysis of the deposited data

Results flagged for a closer look

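Of 66 groups of 4 libraries examined in wt and CRISPR, 7 held 1 library whose gap to the nearest of the other 3 was above the 95% critical value of Dixon's ratio, and all 7 were CRISPR groups. Chance singles out about 5% of such groups.

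CRISPR 3 stood apart for the 58 genes that share the 8-fold pattern but not the CRISPR 3 condition, with a summed level of 2423 CPM against 10.1 to 26.1 CPM in the other CRISPR libraries. Their selection holds CRISPR 1, CRISPR 2 and CRISPR 4 low and CRISPR 3 at 10% or more, so this flag is no separate result. The midgut digestion list summed to 1563 CPM in CRISPR 3 against 1.13 to 15.6 CPM, and the fat body gene Fbp1 stood at 21.7 CPM against 2.77 to 4.40 CPM. OtopLa was the only one of the 20 genes for which CRISPR 3 stood apart on more than 2 reads, with 0.289 CPM against 0.0855 to 0.103 CPM. CG5866 had 0.0445 CPM in CRISPR 3, which is 2 reads, and 0 in the other 3. In CRISPR 4, CG42835 had 0.0471 CPM, also 2 reads, against 0 in the other 3. CG14258 had 1.55 CPM in CRISPR 2, against 0.143 to 0.378 CPM in the other CRISPR libraries.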

How the results depend on the processing

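The number of genes meeting the rule was 20 and lay between 15 and 24 under TMM scaling, 0 added, a 4-fold limit, a mean of 1 CPM and CRISPR 3 limits of 5% or 20%. It was 12 with 0.5 CPM added to the low libraries, 10 with a 16-fold limit and 13 with a mean of at least 5 CPM. Leaving out 1 library at a time gave 19 to 78 genes, and 78 came without CRISPR 3, which removes its condition. TMM scaling lowered every member mean by 3.05% to 3.08%, and without Obp56d, a choice made after seeing the data, the summed level was 539 CPM in wt 2. Among the used libraries the count of called genes was 264 with edgeR, 781 with DESeq2, 400 with no filter beyond 1 read, 5 with the spread from all 8 libraries, and 39 (without wt 2) to 5759 (without CRISPR 2) when 1 library was left out, where the lone library is assumed to vary like the others. It was 42 without wt 3 and 5056 without CRISPR 1. Over all 8 libraries it was 17 with edgeR, 78 with DESeq2 and 13 without the filter, and leaving out 1 library gave 1 (without CRISPR 2) to 26 (without CRISPR 1), each library moving the count by over 1.5 times. With the replicate block it was 14, and 0 of the 7 members that passed the filter were called with or without the block. The causes were not tested. Genes with 1 to 5 reads in a low library have shares that depth does not resolve, the levels of wt 2 and wt 3 rest on n = 2, and counts of reads cannot tell PCR copies from molecules.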
